A study of Saccharomyces cerevisiae with 32 samples.

Results

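A set of 10 yeast genes of branched-chain amino acid synthesis and of its control by the activator Leu3 was followed through 8 strains of budding yeast altered in the RNA helicase genes DED1 and DBP1. They are LEU1 (YGL009C), OAC1 (YKL120W), BAT1 (YHR208W), BAT2 (YJR148W), LEU4 (YNL104C), LEU9 (YOR108W), ILV2 (YMR108W), ILV3 (YJR016C), ILV5 (YLR355C) and LEU3 (YLR451W). These 10 of the 5446 reading frames in the authors' deposited tables were chosen by pathway, with their values in these tables already known. Every value below is therefore a description and not a test of the choice. All 10 genes are in all 6 deposited tables, and all 10 passed the minimum level of 50 in both assays in every comparison.

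Valine, leucine and isoleucine share a pathway that runs mostly in the mitochondrion. Acetolactate synthase (Ilv2), acetohydroxyacid reductoisomerase (Ilv5) and dihydroxyacid dehydratase (Ilv3) act in turn, and the mitochondrial Bat1 and cytosolic Bat2 aminotransferases form the amino acids and can also start their breakdown. Leucine needs a branch of its own, in which Leu4 and Leu9 make alpha-isopropylmalate, Leu1 isomerizes it and Leu2 oxidizes it. Oac1 is a carrier of the inner mitochondrial membrane that moves oxaloacetate and alpha-isopropylmalate. The zinc cluster protein Leu3 binds promoters of many of these genes and becomes an activator when alpha-isopropylmalate is bound, so the pathway's own intermediate sets its transcription. Leucine inhibits Leu4, and the general activator of amino acid synthesis, Gcn4, also acts on much of the pathway.

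The series holds 32 libraries, 16 of ribosome footprints and 16 of mRNA, with 2 per strain and assay. At 15 °C the strains were the cold-sensitive ded1-cs mutant (NSY54), ded1-cs carrying high-copy DBP1 (NSY56, hcDBP1) and the DED1-CS WT (NSY52). An experiment at 37 °C held the heat-sensitive ded1-ts mutant (NSY71), ded1-ts with hcDBP1 (NSY73) and the DED1-TS WT (NSY67). Another experiment at 37 °C held the ded1-ts dbp1Δ double mutant (NSY15, below the ded1-ts dbp1-deletion strain) and the dbp1Δ strain (NSY14, below the dbp1-deletion strain). Cells were grown in synthetic complete medium, with selection for plasmids where a strain needed it, and each genotype is represented by 1 named strain. Ded1 and Dbp1 are related DEAD-box helicases, of which Ded1 is known to help ribosomes start translation. The tables hold 1 pooled value per strain and assay, so the spread between replicates is not known and no difference below was tested. The depth of the libraries is unknown too, and the normalized levels summed to between 5651054 and 48359134 per column. Counts of higher or lower genes use a log2 change of at least 1 (2-fold). The share of all analysed genes past that fold stands beside each count of the 10 from the deposited changes. Translational efficiency is the footprint change minus the mRNA change on the log2 scale.

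The altered loci were read first as a check on the labels. DBP1 stood at a log2 mRNA change of 5.85 in ded1-cs with hcDBP1 and 6.89 in ded1-ts with hcDBP1 in the authors' deposited tables. The double mutant was at -9.45 and the dbp1-deletion strain at -6.21 for DBP1 mRNA in the authors' deposited tables, at levels below the minimum used for other genes. In the experiment on DBP1 deletion the changes are against a WT of the deposited tables that matches no labelled sample. The genotype, plasmids and temperature of that WT are thus not known here. Another pair of loci differed between that WT and the strains. HIS3 mRNA stood at -3.92 in the double mutant and -3.74 in the dbp1-deletion strain in the authors' deposited tables. DED1 mRNA stood at -0.95 in the double mutant and -2.63 in the dbp1-deletion strain in the authors' deposited tables. HIS3 was singled out after its values were seen, and the part that these loci play in the results was not tested.

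The pathway stood far above that WT in the dbp1-deletion strain. LEU1 was 22.02-fold higher in mRNA and 19.8-fold higher in footprints, OAC1 7.22-fold and 11.4-fold, and BAT1 7.78-fold and 6.71-fold, computed from the authors' deposited table. These 3 held ranks 1, 3 and 2 in mRNA among 4978 analysed genes, and ranks 1, 2 and 4 in footprints. Members of the common valine and leucine route were higher by less, and LEU3 itself was near the median gene. In all, 9 of the 10 genes were past 2-fold higher in footprints and 7 in mRNA, and 0 were past 2-fold lower. Of all analysed genes, 1.33% were past 2-fold higher in footprints and 4.32% in mRNA. Because the genes were picked with these values in view, the counts describe the choice and support nothing beyond it. The median over the 10 was 1.55 for footprints and 1.42 for mRNA, against -0.01 for all analysed genes in each assay. Above the median of all genes in its column, LEU1 mRNA stood at 6.16 in the dbp1-deletion strain and 4.9 in DED1-TS. OAC1 stood at 3.19 and 2.2, and BAT1 at 4.41 and 3.8. These gaps are smaller than the log2 mRNA changes of 4.46, 2.85 and 2.96 against that WT. On this measure that WT was thus lower than DED1-TS for these 3 genes. In mRNA LEU4 stood at 3.76 in the dbp1-deletion strain and 3.1 in DED1-TS, ILV3 at 3.88 and 3.5, and ILV5 at 4.47 and 4. ILV2 stood at 3.53 and 3.1, LEU9 at 2.38 and 2, and LEU3 at 0.73 and 0.3. BAT2 was lower in the dbp1-deletion strain than in DED1-TS, at 1.84 and 2.2. The experiments were scaled apart, and the part of the low WT in the folds was not tested.

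Within the leucine branch, LEU1 stood apart from the synthases before it. LEU1 had a log2 mRNA change of 4.46 and a footprint change of 4.31 in the authors' deposited table. LEU4, the main alpha-isopropylmalate synthase, stood at 1.86 for mRNA and 1.79 for footprints in the authors' deposited table, ranks 16 and 13. Its minor isoenzyme LEU9 was at 0.81 and 1.04 in the authors' deposited table, ranks 372 and 60. The synthases thus differed by 1.05 for mRNA and 0.75 for footprints, with LEU4 the higher.

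OAC1, the carrier, stood at 2.85 for mRNA and 3.51 for footprints in the authors' deposited table. It was the gene of the 10 with the largest gain in translational efficiency, at 0.66 in the authors' deposited table. The aminotransferase pair also split. Mitochondrial BAT1 stood at 2.96 for mRNA and 2.75 for footprints, and cytosolic BAT2 at 0.97 and 1.29, in the authors' deposited table. The difference, BAT1 minus BAT2, was 1.99 for mRNA and 1.46 for footprints.

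The 3 enzymes of the common route lay close together. ILV2 stood at 1.40 for mRNA and 1.61 for footprints in the authors' deposited table. ILV3 stood at 1.45 and 1.49, and ILV5 at 1.35 and 1.32, in the authors' deposited table. The activator gene LEU3 stood at 0.12 for mRNA and 0.23 for footprints in the authors' deposited table, ranks 1982 and 1077 of 4978. The mRNA of LEU1 thus differed from that of the gene for its activator by 4.34 on the log2 scale.

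**Figure D1:**
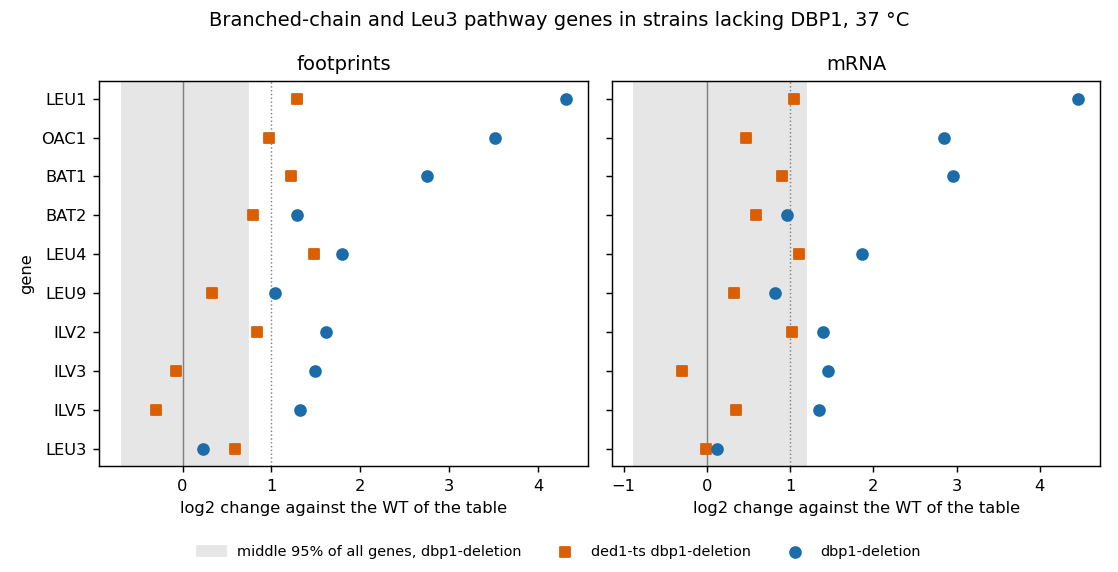
Log2 change of the 10 genes in footprints (left) and mRNA (right), against the WT of each table. Squares show the ded1-ts dbp1-deletion strain, circles the dbp1-deletion strain, and the grey band holds the middle 95% of all analysed genes in the dbp1-deletion table. LEU1, OAC1 and BAT1 lie far right in the dbp1-deletion strain, up to 4.46, and at 1.28 or less in the double mutant.

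Translational efficiency differed little for the 10 genes in this strain. Values of the 10 ran from -0.21 for BAT1 to 0.66 for OAC1, close to the upper end, in the authors' deposited table. None of the 10 was past 2-fold in either direction, against 2.25% of all analysed genes, and 0 of 10 lies near that share. LEU1, the highest of all analysed genes in both assays, stood at -0.15 in translational efficiency in the authors' deposited table.

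**Figure D2:**
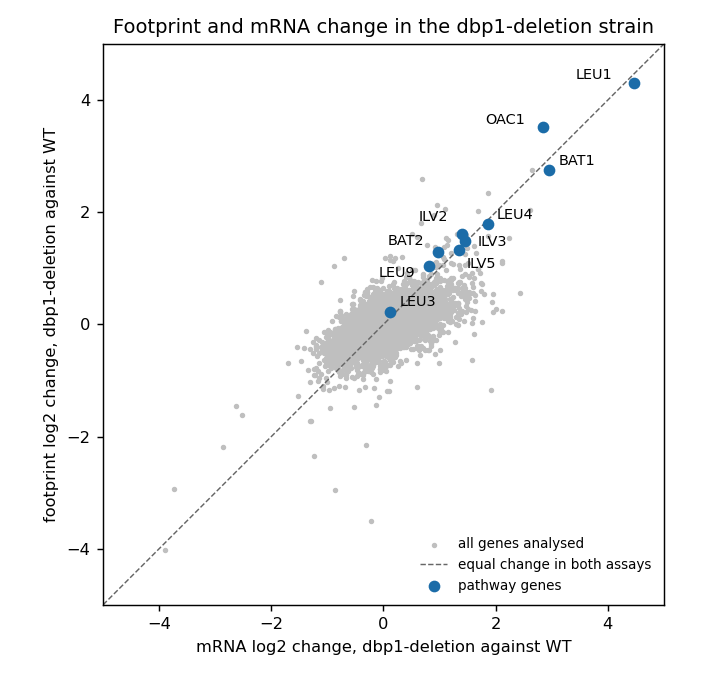
Footprint log2 change (vertical) against mRNA log2 change (horizontal) in the dbp1-deletion strain for 4978 analysed genes (grey) and the 10 pathway genes (blue). The pathway genes lie near the dashed line of equal change, and OAC1 sits furthest above it, at 0.66.

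The other lists of the pathway's surroundings had lower medians in the dbp1-deletion strain than the 10 genes. For 5 such lists these ran from -0.18 to 1.32 in footprints and from -0.37 to 1.05 in mRNA. ILV6, the regulatory subunit of acetolactate synthase, stood at 1.06 for mRNA and 0.44 for footprints in the authors' deposited table. ILV1, the threonine deaminase that opens the isoleucine branch, was at 0.40 and 0.18 in the authors' deposited table. LEU2, the isopropylmalate dehydrogenase and a common marker gene, has no value in the deposited tables of the strains without DBP1. Both genes listed here as Leu3 targets outside synthesis were past 2-fold higher in footprints and 1 of these 2 in mRNA. The ammonia-assimilating glutamate dehydrogenase GDH1 stood at 1.23 for footprints and 0.97 for mRNA in the authors' deposited table. The branched-chain permease BAP2 stood at 1.41 for footprints and 1.13 for mRNA in the authors' deposited table. BAP2 was the only 1 of 5 permease genes for branched-chain amino acids past 2-fold there, in each of these assays. Of 5 genes that charge tRNAs with leucine, isoleucine or valine, 0 were past 2-fold in footprints, mRNA or translational efficiency. Among 5 analysed carriers of organic acids other than OAC1, 0 were higher past 2-fold and 1, the oxodicarboxylate carrier ODC2, was lower in footprints, at -1.49 in the authors' deposited table.

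GCN4, which encodes the general activator, was also higher in footprints in this strain. It stood at 1.61 in footprints, 0.50 in mRNA and 1.10 in translational efficiency in the authors' deposited table. The double mutant had a higher GCN4 value, 2.90 in footprints, 1.14 in mRNA and 1.76 in translational efficiency in the authors' deposited table. The order of the strains for GCN4 was thus the opposite of that for LEU1, OAC1 and BAT1, and the part of GCN4 in the results was not tested.

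With ded1-ts added to the deletion, the leading genes stood far lower. The pooled log2 mRNA level of LEU1 was 11.66 in the ded1-ts dbp1-deletion strain and 15.21 in the dbp1-deletion strain. Its footprint level was 13.45 in the ded1-ts dbp1-deletion strain and 16.61 in the dbp1-deletion strain. OAC1 had an mRNA level of 9.73 in the double mutant and 12.24 in the dbp1-deletion strain, and a footprint level of 10.18 in the double mutant and 12.85 in the dbp1-deletion strain. BAT1 had an mRNA level of 11.26 in the double mutant and 13.46 in the dbp1-deletion strain, and a footprint level of 12.96 in the double mutant and 14.61 in the dbp1-deletion strain. The double mutant was the lower of the pair for all 3 genes in both assays.

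Each level column carries its own scaling, so the difference of the deposited changes was used for the size. The implied WT values of both tables differed by a constant, 0.133 in footprints and 0.138 in mRNA. This held within 0.011 for 5001 genes in footprints and 5203 in mRNA, those with a WT level of at least 50. It was thus taken that 1 control serves both and cancels. On that measure LEU1 mRNA was 10.6-fold lower in the double mutant than in the dbp1-deletion strain, a log2 difference of -3.41, and its footprints were 8.14-fold lower (-3.03). The log2 difference for OAC1 was -2.38 for mRNA and -2.54 for footprints, and for BAT1 it was -2.06 and -1.52. LEU1 mRNA was the eighth lowest of 5011 genes.

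The later steps of the common route differed more than the first. ILV3 had an mRNA level of 11.05 in the double mutant and 12.93 in the dbp1-deletion strain, a log2 difference of -1.75 in mRNA between the deposited changes, with -1.57 in footprints. ILV5 had a footprint level of 13.89 in the double mutant and 15.64 in the dbp1-deletion strain, a difference of -1.62, with -0.99 in mRNA. ILV2, LEU4, BAT2 and LEU9 differed by between -0.75 and -0.38 in mRNA, and LEU3 by -0.13. In footprints ILV2 was at -0.78, LEU9 at -0.70, BAT2 at -0.49, LEU4 at -0.31 and LEU3 at 0.36.

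In all, 5 of the 10 were past 2-fold lower in footprints, where 8.6% of all analysed genes were, and 4 in mRNA, where 3.69% were. Every 1 of the 10 was below 0 in mRNA, where 49.5% of all analysed genes were, with a median of -0.87. The values of the dbp1-deletion strain, known when the 10 were picked, are subtracted here. Nothing is therefore read from these counts. None of the 10 was past 2-fold in translational efficiency, against 10.6% of all analysed genes, and the range ran from -0.63 for ILV5 to 0.54 for BAT1.

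Against the WT of the table, LEU1, OAC1 and BAT1 were also higher in the double mutant, by less than in the dbp1-deletion strain. LEU1 stood at 1.28 for footprints and 1.05 for mRNA, and LEU4 at 1.48 and 1.11, in the authors' deposited table. BAT1 stood at 1.23 for footprints and 0.90 for mRNA in the authors' deposited table. OAC1 stood at 0.98 and 0.47, ILV2 at 0.84 and 1.02, and BAT2 at 0.80 and 0.59, in the authors' deposited table. ILV3 stood at -0.08 for footprints and -0.30 for mRNA, and ILV5 at -0.30 and 0.35, in the authors' deposited table. LEU9 stood at 0.34 for footprints and 0.33 for mRNA, and LEU3 at 0.58 and -0.01, in the authors' deposited table. LEU3 footprints were thus higher in the double mutant than in the dbp1-deletion strain, as was its translational efficiency, at 0.59 in the double mutant and 0.11 in the dbp1-deletion strain in the authors' deposited tables. Of the 10, 3 were past 2-fold higher in footprints, where 9.3% of all analysed genes were, and 3 in mRNA, where 10% were. None was past 2-fold in translational efficiency, against 13% of all analysed genes. LEU4 was the highest of the 10 in the double mutant in both assays, where LEU1 was the highest in the dbp1-deletion strain. Above the column median, LEU1 mRNA stood at 2.72 in the double mutant, below its 4.9 in DED1-TS. OAC1 stood at 0.79 and 2.2, and BAT1 at 2.32 and 3.8. On this measure these 3 genes were lower in the double mutant than in DED1-TS. The experiments were scaled apart, and that difference was not tested.

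Outside the 10, ILV6 had the higher footprint value in the double mutant, 1.24, with 0.95 in mRNA, in the authors' deposited table. BAP2 footprints were lower by 1.04 in the double mutant than in the dbp1-deletion strain on the log2 scale. The dicarboxylate carrier DIC1 was lower there by 2.40 for footprints and 1.03 for mRNA. The oxodicarboxylate carriers ODC2 and ODC1 were higher there in footprints, by 1.60 and 1.04.

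**Figure D3:**
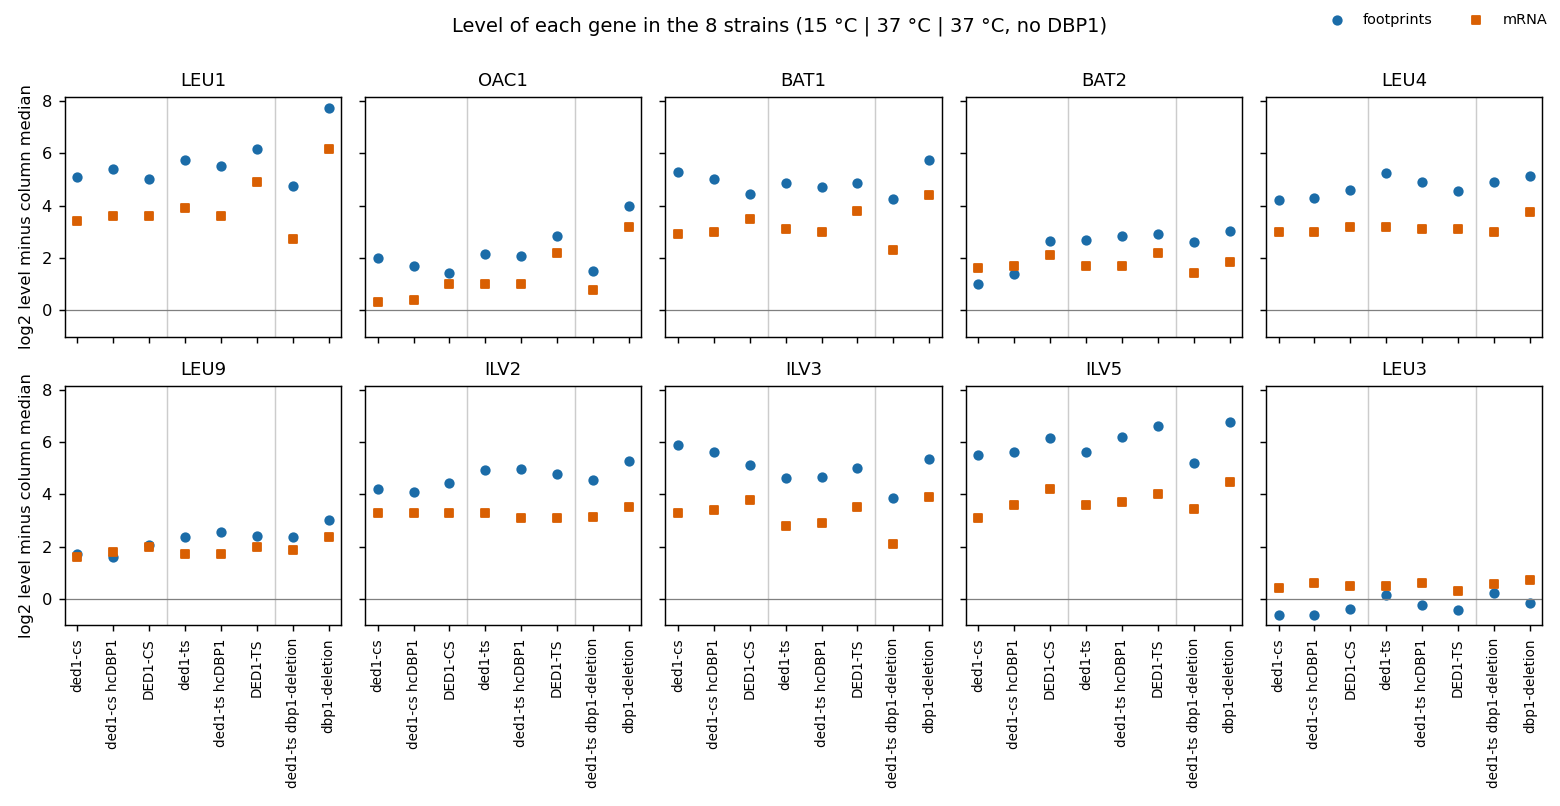
Pooled log2 level of each gene in the 8 strains, minus the median of all genes in that column, for footprints (circles) and mRNA (squares); thin lines part the 3 experiments. Strains should be compared within a panel only, and since the experiments were scaled apart, best within an experiment. The dbp1-deletion strain lies above the double mutant for LEU1, OAC1 and BAT1 in both assays.

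The ded1-ts allele was also read where DBP1 is present, at the same temperature. LEU1 had an mRNA level of 14.5 in ded1-ts and 15.4 in DED1-TS, and a footprint level of 16.16 in ded1-ts and 16.62 in DED1-TS. OAC1 had an mRNA level of 11.6 in ded1-ts and 12.7 in DED1-TS, and a footprint level of 12.56 in ded1-ts and 13.29 in DED1-TS. Both genes were lower in the mutant in both assays. The log2 mRNA changes were -0.93 for LEU1 and -1.08 for OAC1, with -0.57 for BAT1 and -0.53 for ILV3, in the authors' deposited table. LEU4 stood at 0.24, ILV2 and LEU3 each at 0.32, LEU9 at -0.12, ILV5 at -0.28 and BAT2 at -0.32 in mRNA in the authors' deposited table.

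OAC1 was thus the 1 gene of the 10 past 2-fold lower in mRNA, where 3.19% of all analysed genes were. In footprints ILV5 was the 1 gene past 2-fold lower, where 6.65% of all analysed genes were. Its footprint level was 16.0 in ded1-ts and 17.04 in DED1-TS, a change of -1.05 in the authors' deposited table. ILV5 had the lowest translational efficiency of the 10, at -0.77, and BAT1 the highest, at 0.51, in the authors' deposited table. None was past 2-fold in translational efficiency, against 9.38% of all analysed genes. With the columns scaled to equal totals, OAC1 mRNA stood at -0.88 and ILV5 footprints at -0.92, within 2-fold.

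The effect of ded1-ts is here the difference between a ded1-ts strain and its comparison strain. It was lower without DBP1 than with DBP1 for all 10 genes in mRNA and for all 10 in footprints. Of all genes analysed in both, 49.7% were lower without DBP1 in mRNA and 46.2% in footprints. In translational efficiency 5 of 10 were lower, where 46.8% of all genes were. With the columns scaled to equal totals 8 of 10 were lower, but that scaling shifts all genes alike and the 46.8% does not apply to it. Since the 10 were picked with the values of the dbp1-deletion strain in view, nothing is read from these counts. For LEU1 mRNA the effect was -3.41 without DBP1 and -0.93 with it, which differ by -2.48. The same difference was -1.49 for BAT1, -1.30 for OAC1, -1.21 for ILV3 and -0.07 for BAT2 in mRNA. In footprints it was -2.56 for LEU1 and -1.81 for OAC1. These experiments share no library, and the difference was not tested. The dbp1-deletion strain, with its high levels, sets the base of the first effect.

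**Figure D4:**
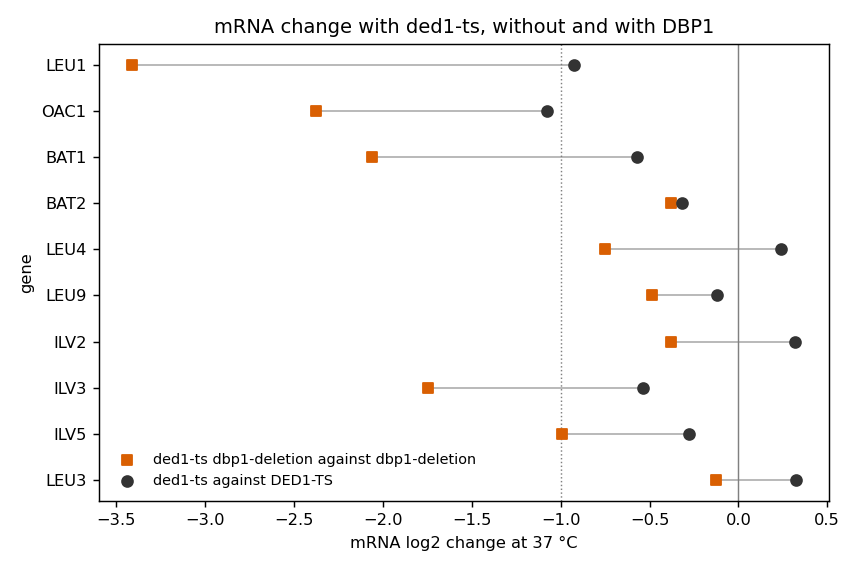
Log2 mRNA change with ded1-ts at 37 °C for each gene, in strains without DBP1 (squares, ded1-ts dbp1-deletion against dbp1-deletion) and with DBP1 (circles, ded1-ts against DED1-TS). Each square lies left of its circle, by 2.48 for LEU1 and by 0.07 for BAT2, and the dotted line marks 2-fold lower.

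LEU1 and OAC1 were also lower than in DED1-TS when ded1-ts carried high-copy DBP1. LEU1 had an mRNA level of 14.3 in ded1-ts with hcDBP1 and 15.5 in DED1-TS in the table of that strain, and a footprint level of 16.07 in ded1-ts with hcDBP1 and 16.72 in DED1-TS. OAC1 had an mRNA level of 11.7 in ded1-ts with hcDBP1 and 12.8 in DED1-TS, and a footprint level of 12.64 in ded1-ts with hcDBP1 and 13.39 in DED1-TS. The log2 mRNA changes were -1.22 for LEU1 and -1.04 for OAC1, the 2 of the 10 past 2-fold lower, in the authors' deposited table. Of all analysed genes, 0.614% were past 2-fold lower in mRNA there. With the columns scaled to equal totals LEU1 was past 2-fold lower and OAC1, at -0.88, was not. BAT1 stood at -0.73, ILV3 at -0.45 and BAT2 at -0.42 in mRNA in the authors' deposited table. In footprints 0 of the 10 were past 2-fold, against 2.99% of all analysed genes, and in translational efficiency 0, against 3.87%.

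Set against ded1-ts itself, the strain with hcDBP1 had all 10 genes within 2-fold in footprints, mRNA and translational efficiency. The shares of all analysed genes past 2-fold were 2.95% in footprints, 1.01% in mRNA and 1.67% in translational efficiency. The widest differences were 0.61 in footprints and 0.56 in translational efficiency, both for ILV5. LEU1 mRNA was at -0.29, OAC1 at 0.04 and BAT1 at -0.16. LEU2 differed more than any of the 10 here. Its mRNA level was 18.5 in ded1-ts with hcDBP1 and 17.3 in ded1-ts, and the difference of the deposited changes was 1.01 for mRNA and 1.17 for footprints. LEU2 can be carried on plasmids, its copy number in these strains is not given in the sources used here, and its part in the values of the other genes was not tested.

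At 15 °C the aminotransferases BAT1 and BAT2 differed from DED1-CS in footprints in opposite directions. BAT1 had a footprint level of 15 in ded1-cs and 14.34 in DED1-CS, with an mRNA level of 13.0 in ded1-cs and 13.5 in DED1-CS. BAT2 had a footprint level of 10.7 in ded1-cs and 12.55 in DED1-CS, with an mRNA level of 11.7 in ded1-cs and 12.1 in DED1-CS. In footprints BAT1 was thus higher and BAT2 lower in the mutant, while both were slightly lower in mRNA.

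The log2 change in translational efficiency was 1.17 for BAT1 and -1.43 for BAT2 in the authors' deposited table. BAT1 minus BAT2 was 2.6 in translational efficiency and -0.03 in mRNA. BAT2 footprints stood at -1.88 in the authors' deposited table, 3.69-fold lower. ILV3 had a footprint level of 15.6 in ded1-cs and 15.01 in DED1-CS and an mRNA level of 13.4 in ded1-cs and 13.8 in DED1-CS. Its translational efficiency stood at 1.07, and that of OAC1 at 0.99, in the authors' deposited table. ILV2 stood at -0.54, LEU4 at -0.47, LEU3 at -0.37, LEU9 at -0.29, ILV5 at 0.12 and LEU1 within 0.01 of 0 in translational efficiency in the authors' deposited table. The mitochondrial aminotransferase, the dehydratase and the carrier were thus the 3 highest, and the cytosolic aminotransferase the lowest.

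BAT1 and ILV3, 2 of the 10, were past 2-fold higher in translational efficiency, where 16.5% of all analysed genes were, and 1, BAT2, past 2-fold lower, where 21.9% were. In footprints 1, BAT2, was past 2-fold lower, where 20.2% of all analysed genes were. None was past 2-fold in mRNA, against 2.24%. In mRNA 9 of the 10 were below 0, where 51.2% of all analysed genes were, with a median of -0.39 and ILV5 the lowest, at -0.96, in the authors' deposited table. Counts of 2, 1 and 1 of 10 lie near those shares of all genes, and 0 of 10 near 2.24%. The translational efficiency of ILV3 was within 2-fold with the changes centred on the median of all genes, at 0.97. It was also within 2-fold from the differences of the level columns, at 0.99. Scaling the columns to equal totals shifts translational efficiency in this table by -0.59, and BAT1 and ILV3 then stand at 0.57 and 0.47, within 2-fold. LEU4 and ILV2 then stand past 2-fold lower with BAT2, at -1.07 and -1.13, so that 0 are higher and 3 lower. In footprints 4 of the 10 are past 2-fold lower under that scaling, which shifts the footprint changes of all genes by -0.53. The shares above are for the unscaled changes, so nothing is read from the scaled counts.

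Of 5 permease genes, 3 were past 2-fold lower in translational efficiency, where 21.9% of all analysed genes were, and 0 higher, where 16.5% were. BAP2 was at -1.73, the tyrosine and branched-chain permease TAT1 at -1.53 and BAP3 at -1.20 in the authors' deposited table, with the broad amino acid permeases GNP1 at -0.55 and AGP1 at 0.14. Of 5 tRNA-charging genes, 2 were past 2-fold higher, 1 was lower and the rest were within 2-fold. The cytosolic isoleucyl-tRNA synthetase ILS1 stood at 1.04 and its mitochondrial counterpart ISM1 at 1.03 in the authors' deposited table. The mitochondrial leucyl-tRNA synthetase NAM2 stood at -1.43 in the authors' deposited table. The carriers DIC1 and YHM2, the citrate and oxoglutarate carrier, were at -2.01 and -1.26 in the authors' deposited table. The other 3 analysed carriers, CTP1, ODC2 and ODC1, lay between 0.30 and 0.57, with OAC1 at 0.99, in the authors' deposited table. GDH1 stood at 1.17 in the authors' deposited table. Equal column totals shift all these values by -0.59, which brings ILS1, ISM1 and GDH1 within 2-fold and takes GNP1 past 2-fold lower. GCN4 stood at -1.72 in footprints with 0.67 in mRNA in the authors' deposited table. In ded1-ts at 37 °C the authors' deposited table had GCN4 at 2.22 in footprints with 0.79 in mRNA.

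**Figure D5:**
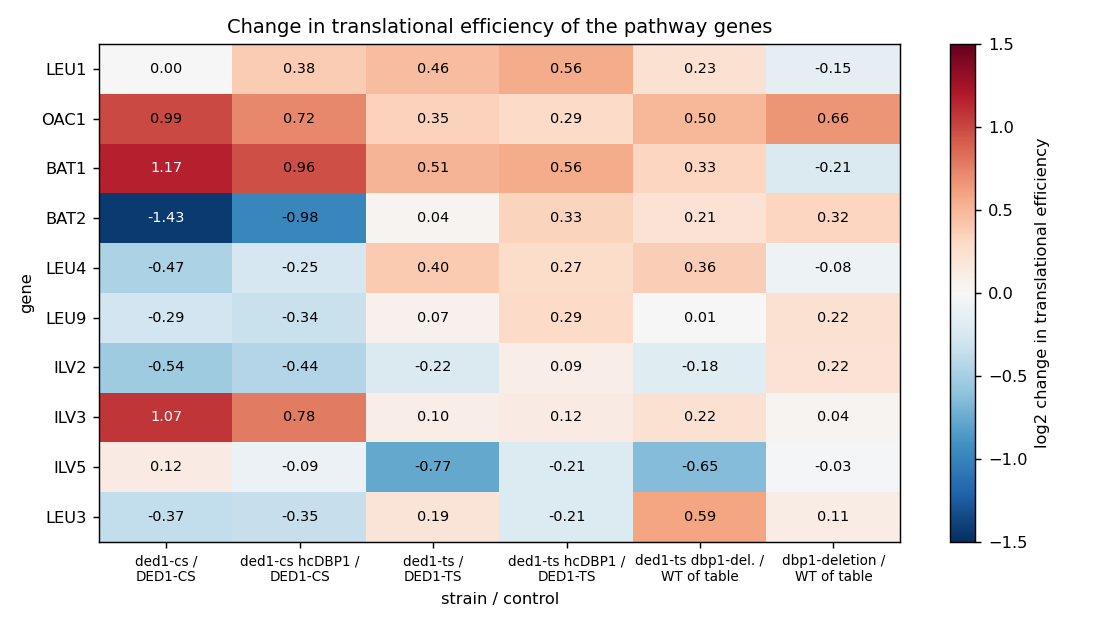
Log2 change in translational efficiency of the 10 genes (rows) in the 6 deposited comparisons (columns), with red for higher and blue for lower than the control. BAT1, ILV3 and OAC1 are the reddest and BAT2 the bluest cells in ded1-cs at 15 °C, at 1.17, 1.07, 0.99 and -1.43.

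The same genes were read in ded1-cs with hcDBP1. BAT2 had a footprint level of 11.1 in ded1-cs with hcDBP1 and 12.45 in DED1-CS in the table of that strain, and a change of -1.37 in the authors' deposited table. BAT1 stood at 0.96 in translational efficiency and BAT2 at -0.98, with ILV3 at 0.78 and OAC1 at 0.72, in the authors' deposited table. None of the 10 was past 2-fold in translational efficiency, against 22.5% of all analysed genes. BAT2 was past 2-fold lower with the changes centred on the median of all genes, at -1.11, and with equal column totals, at -1.40. In footprints 1, BAT2, was past 2-fold lower, where 11% of all analysed genes were, and in mRNA 0 were past 2-fold, against 1.47%.

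Between ded1-cs with hcDBP1 and ded1-cs, 0 of the 10 were past 2-fold in footprints, mRNA or translational efficiency. The shares of all analysed genes were 4.02% in footprints, 0.373% in mRNA and 2.49% in translational efficiency. In translational efficiency BAT2 was higher by 0.45 with hcDBP1 and LEU1 by 0.38, while ILV3 was at -0.28, OAC1 at -0.27, ILV5 at -0.21 and BAT1 at -0.20. No error can be set beside these differences.

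The genes whose mRNA pattern was nearest that of LEU1 were sought over the 6 deposited comparisons, by the root mean square difference from LEU1 among 4930 other genes. Both nearest were members, BAT1 at 0.70 and OAC1 at 0.75. The next were QDR2, a multidrug exporter gene, at 0.97, PHM7 at 1.01, SED1 of the cell wall at 1.12, AIM17 at 1.18 and YNR014W at 1.20. Of the other members LEU4 ranked 11, ILV3 28, ILV5 38, ILV2 45, BAT2 69, LEU9 177 and LEU3 2409. The 6 comparisons share controls in pairs, and the value of LEU1 in the dbp1-deletion strain is by far the largest of its 6. The members were picked with these values known, so nothing is read from their ranks.

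None of the 10 genes overlaps another annotated gene. BAT1 and BAT2 are paralogs, as are LEU4 and LEU9, and how reads shared by such copies were assigned is not given in the sources used here.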

How the data were processed

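Per the labels' protocols, cells at an OD600 near 0.7 were moved to the temperature of the experiment, cycloheximide (100 µg/ml) was present for the last 2 min, and RNase I gave the footprints. Build sacCer2, DESeq2, TopHat2 2.1.0, Bowtie2 2.6.0 and CASAVA 1.8 are named, with no role or order, per the submitters' processing notes; gene assignment and filters are not given in the sources used here. The authors deposited levels and changes per gene on a log2 scale, normalized by them, with 1 value per strain and assay; the base is not stated and was inferred from the range of the values. The deposited translational efficiency equals the footprint minus the mRNA change within 1e-05. The 4 level columns of the WT in the DBP1 deletion experiment match no sample and were not used as levels.

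Python 3.11.15, pandas 2.3.3, numpy 2.4.6 and matplotlib 3.10.9 were used. Genes entered a comparison where the mean level over the strains compared and their controls was at least 50 in each assay, and 2-fold (log2 of 1) set the counts. Comparisons of strains in different tables of an experiment, namely hcDBP1 against none and ded1-ts dbp1-deletion against dbp1-deletion, are differences of deposited changes. Those against the WT of the DBP1 deletion experiment use the deposited changes alone. No test was run because the tables hold no value per library, so the planned limma fit, the replicate block and leaving out a replicate were not possible. The counting was tested on simulated data. The members, the lists and the rule on which genes to name were chosen with earlier results of these data known. Of 5446 reading frames, 5444 were matched to symbols of the reference annotation by locus tag; it is of another build, so no coordinates or sequences are given.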

Additional observations from a re-analysis of the deposited data

How the results depend on the processing

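The 27 sets of 10 member values were recomputed under 5 alternatives: columns scaled to equal totals, changes centred on the median of all genes, differences of the level columns, no minimum level, and a minimum of 200. No value past 2-fold changed direction. Without a minimum and at 200, all 270 values stayed on their side of 2-fold; centring on the median moved 2 across it. Of 270 values at equal totals, 257 stayed on their side, and of 210 that the level columns can give, 207 did. Those columns give none against the WT of the DBP1 deletion experiment.

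At equal totals, the count of the 10 past 2-fold was 4 in place of 1 for ded1-cs footprints, 2 in place of 1 for ded1-cs hcDBP1 footprints and 1 in place of 0 for ded1-cs hcDBP1 translational efficiency. For ded1-cs translational efficiency it stayed 3, but as 0 higher and 3 lower (BAT2, LEU4, ILV2) in place of 2 higher and 1 lower. It was 0 in place of 1 for ded1-ts in footprints and in mRNA, and 1 in place of 2 for ded1-ts hcDBP1 mRNA. No share of all genes at equal totals stands beside these counts, so nothing is read from them. Centring also gave 1 for ded1-cs hcDBP1 translational efficiency, and the level columns gave 1 in place of 0 for ded1-cs mRNA, with ILV5 at -1. The cause was not tested. OAC1 mRNA stood at -0.88 in ded1-ts and in ded1-ts hcDBP1 at equal totals, and ILV5 footprints at -0.92 in ded1-ts. ILV2 mRNA in the double mutant against the WT stood at 0.98. ILV3 translational efficiency in ded1-cs stood at 0.47 at equal totals, 0.97 when centred and 0.99 from the level columns. The counts in the dbp1-deletion strain against its WT and in the double mutant against that strain were within 1.5 times under every alternative run.

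No paired analysis was possible because each value pools both libraries of a strain and assay. Leaving out a replicate was not run for the same reason, and neither error nor depth per library is known.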

Other observations

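OAC1 has a neighbour, DGR2, that stood at the other end of the tables; it was singled out after its values were seen. DGR2 was the lowest of all analysed genes in the dbp1-deletion strain, at -3.89 for mRNA and -4.02 for footprints in the authors' deposited table, where OAC1 stood at 2.85 and 3.51. The double mutant had DGR2 at 0.70 for mRNA and -1.92 for footprints in the authors' deposited table, and the difference between these strains, 4.60 in mRNA, was the highest of all analysed genes. VPH2 on the other side of OAC1, an assembly factor of the vacuolar ATPase, stood at -1.20 in mRNA in the dbp1-deletion strain in the authors' deposited table. The neighbours of LEU1, MPO1 and the plasma membrane proton pump PMA1, stood at -0.17 and 0.29 there in the authors' deposited table. BAT2 lies beside YJR149W, which stood at -3.50 for footprints and -0.23 for mRNA in the dbp1-deletion strain in the authors' deposited table.

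LEU2, the dehydrogenase after LEU1, was read where it was analysed. In ded1-ts it stood at -0.84 in mRNA with LEU1 at -0.93, and in footprints at -0.53 with LEU1 at -0.46, in the authors' deposited table. With hcDBP1 in ded1-cs it stood at -1.16 in mRNA, and LEU1 at -0.06, in the authors' deposited table. LEU2 footprint levels were 16.8 in ded1-cs and 16.62 in DED1-CS at 15 °C, and 19.24 in ded1-ts and 19.77 in DED1-TS at 37 °C. LEU2 can be carried on plasmids, and its copy number in these strains is not given in the sources used here.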
